A study of Mus musculus with 272 samples.

Results

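Mouse embryos switch on their own genes within the first cell cycles after fertilization, while proteins and messenger RNAs stored in the egg still run development. Transcription factors that open chromatin or bind promoters at that time have been tied to this switch, called zygotic genome activation. The 10 genes described here encode such factors: the orphan nuclear receptors Nr5a2 and Esrrb, the retinoic acid receptor Rarg, the 3 subunits Nfya, Nfyb and Nfyc of the CCAAT-box factor NF-Y, the paired chromatin proteins Dppa2 and Dppa4, the ETS family factor Gabpa and the zinc finger factor Yy1. They were taken as a list of gene names, and all 10 were found among the 15771 genes kept from the deposited table.

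The study followed mouse oocytes and embryos at 8 stages: germinal vesicle (GV) oocytes, metaphase II (MII) eggs, zygotes, 2-cell, 4-cell and 8-cell embryos, morulae and blastocysts. For each stage, 4 pools of 20 oocytes or embryos gave a transcriptome library of polyA RNA. In addition, lysates of about 100 oocytes or embryos were spread on a sucrose gradient with the elongation inhibitor cycloheximide and cut into 10 fractions of equal volume, with 3 gradients a stage and 1 library a fraction. No strain, genotype or drug treatment is given, and the labels tell the groups apart by stage and kind of library only. Fractions 6 to 10, toward the bottom of the gradient, are called heavy here and fractions 1 to 5 light. RNAs carrying several ribosomes sediment far, although no ribosome was measured in these libraries. Values are CPM, a gene's reads per 1e6 reads of its own library, so a change in CPM cannot be told apart from a change in the RNA content of an oocyte or embryo. Transcriptome libraries were made of polyA RNA, so a change there cannot be told apart from a change in polyA tails either.

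Transcriptome libraries held 11.2 to 24.3 M reads (M, 1e6 reads) and fraction libraries 0.0102 to 43.2 M, with 15 fraction libraries under 1 M. Those shallow libraries included 3 of the 30 at the 2-cell stage, 4 at the 4-cell stage, 3 at the 8-cell stage, 3 of morulae and 2 of GV oocytes. The gradients of 2-cell and 4-cell embryos also repeated less well than the rest. The median standard deviation of a gene's heavy level between gradients, on the log2 scale, was 1.13 at the 2-cell and 1.85 at the 4-cell stage, against 0.289 in blastocysts and 0.366 in GV oocytes. Transcriptome libraries had medians of 0.137 to 0.307. Stage labels matched their markers: the summed level of 7 oocyte genes ran from 16851 to 19957 CPM in GV transcriptomes and from 6.94 to 12.3 CPM in blastocysts. The 5 markers of 2-cell embryos summed to 1692 to 2355 CPM at the 2-cell stage, and the 7 blastocyst markers to 2480 to 3028 CPM in blastocysts. Of 11 genes of cumulus and granulosa cells, 4 were in the table, and they summed to 40.1 to 49.8 CPM in GV oocytes, 65.3 to 75.5 in eggs and 1.71 to 3.92 in blastocysts. The heavy and light means of these genes summed to at most 54.9 and 40.9 CPM in any gradient. Of 4 sperm genes, 2 were in the table, with summed levels of 0 to 19.5 CPM in the transcriptomes over all stages. Their heavy means summed to at most 23.6 CPM in any gradient, while their light means summed to 50.5 to 108 CPM at the 2-cell stage, 48.7 to 81.5 in eggs, 42.4 to 57.8 in zygotes and 11.3 to 56.4 in GV oocytes. The part of these other cells in the changes below was not tested.

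Nr5a2, Nfyb, Dppa2, Dppa4, Rarg and Yy1 had their highest mean transcript level after the 2-cell stage. From zygote to 2-cell embryo the transcripts of Gabpa, Yy1, Dppa4 and Rarg rose, and from the 2-cell to the 4-cell stage those of Nr5a2, Nfyb, Dppa2, Dppa4, Rarg, Esrrb and Yy1 rose while that of Nfya fell. Nfya, Nfyc and Esrrb instead had their highest means in the oocyte or egg. In the gradients, Gabpa RNA of 2-cell embryos lay almost wholly in the heavy fractions, and Esrrb RNA of 2-cell embryos mostly in the light ones.

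**Figure D1:**
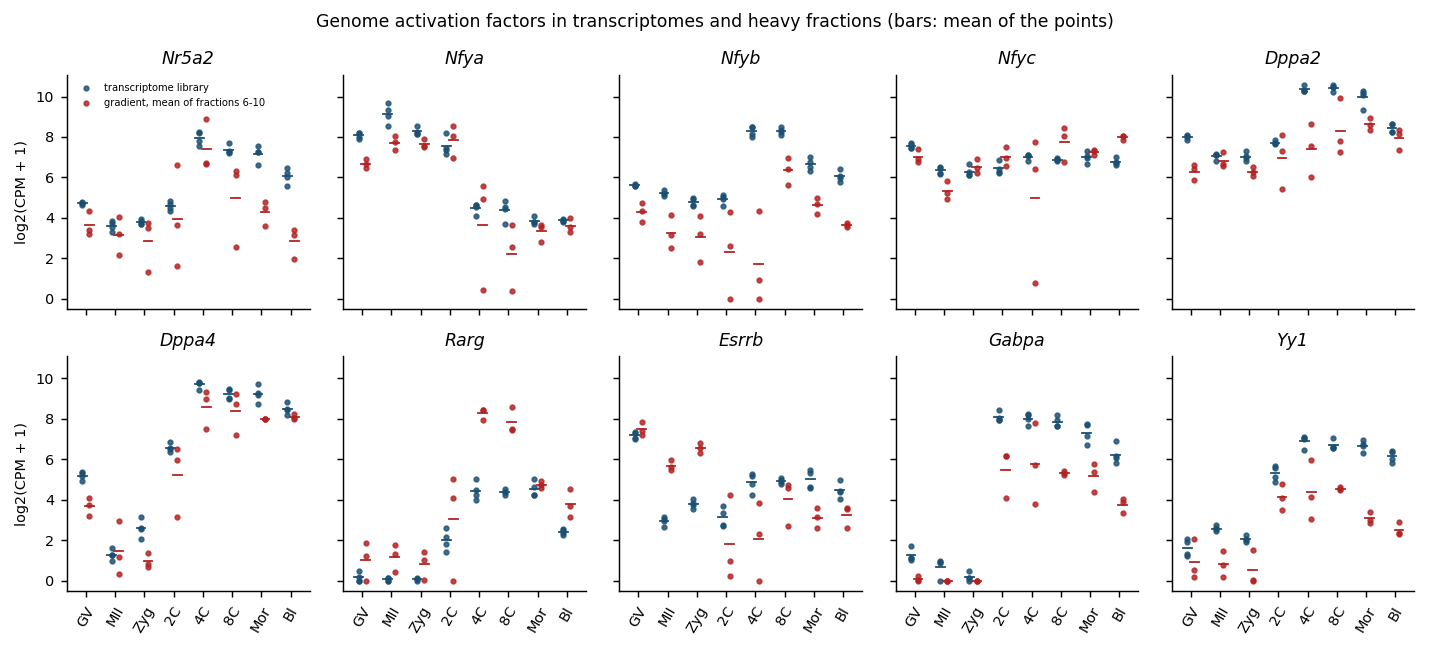
Levels of the 10 factors at 8 stages, as log2(CPM + 1) on the vertical axis. Blue points are the 4 transcriptome libraries of a stage, red points the 3 gradients (mean CPM over fractions 6 to 10), and short bars their means. Gabpa goes from at most 0.379 CPM in zygotes to at least 243 CPM in 2-cell transcriptomes, and the red points are most spread at the 2-cell and 4-cell stages.

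A change was called where limma's moderated test on log2(CPM + 1), fitted over all stages, gave a Benjamini-Hochberg adjusted p under 0.05 over all genes and the change was at least 1. In the transcriptomes 14642 genes were tested. Between GV oocyte and egg 34.5% of them were called, and 5 of the 10 factors (1 higher, 4 lower). Between egg and zygote 10.3% were called and 1 factor (higher), and between zygote and 2-cell embryo 33.9% and 4 factors (all higher). Between the 2-cell and 4-cell stages 64.8% of all genes were called and 8 factors, 7 higher and 1 lower, while over all genes 4662 were higher and 4823 lower. The median change of the 10 factors there was 2.09 on the log2 scale, against 0.02 over all genes. Between the 4-cell and 8-cell stages 2.60% were called and 0 factors. At an unadjusted p under 0.05 limma gave 2 of the 10 in that step, while edgeR and DESeq2 on reads recovered from the CPM also called 0. Between 8-cell embryo and morula 11.9% were called and 1 factor (lower), and between morula and blastocyst 26.8% and 4 factors (all lower). The number called was thus near the share of all genes in most steps. The 4 pools of a stage came from 1 batch per the series' design text, so these p-values measure the spread between pools. A change between stages therefore cannot be told apart from a difference between batches.

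**Figure D2:**
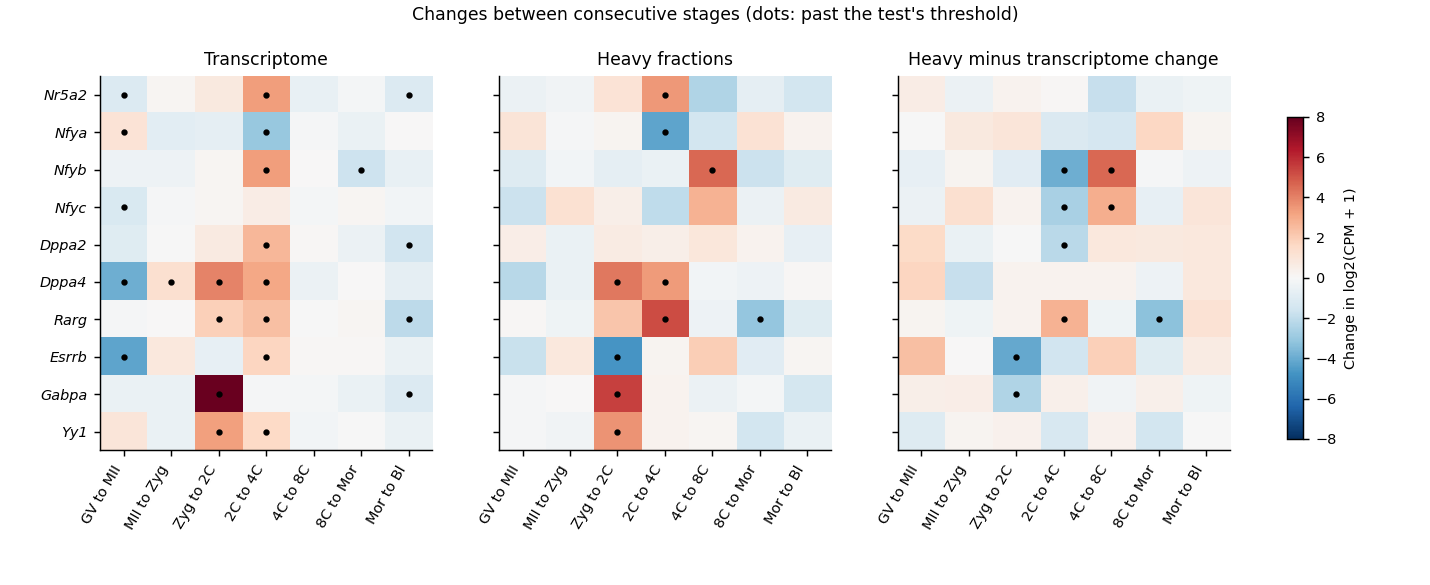
Change in log2(CPM + 1) of each factor between consecutive stages, in the transcriptomes (left), in the heavy fractions (middle) and the difference of these 2 changes (right). Red is higher in the later stage, blue lower, and dots mark changes past the test's threshold. Over the 7 steps in order the transcriptome panel holds 5, 1, 4, 8, 0, 1 and 4 dots.

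Gabpa encodes the DNA-binding subunit of the GA-binding protein, an ETS family factor that pairs with a Gabpb subunit and binds CCGGAAG-like sites at many promoters of housekeeping genes. Its own upstream window holds matches to the sites of 2 of the factors described here. The 25 bases around each are shown because Gabpa had the largest rise of the 10 and its window alone among theirs held either match. Capitals mark the match, which lies on the opposite strand, in a window that ends 1 base before the annotated start.
Gabpa, ETS family site, chr16:84835022-84835046, plus strand: gggtaagtgCTTCCGGgtccctcag
Gabpa, YY1 site, chr16:84835048-84835072, plus strand: taagactccGCCATCTttcctacac
The matches begin 93 and 67 bases before the start. An annotated exon of Atp5j, the gene that runs the other way from there, touches the window that holds them. An annotated exon of Gabpa itself also touches the window, so part of it is transcribed sequence of Gabpa in the GENCODE annotation. Sequences are from RefSeq on GRCm38.p6, while the CPM were made on GRCm39. Among all 32817 upstream windows of 250 bases, 6.91% held CCGGAAG and 4.57% held AGATGGC on either strand. A match is a description of letters and no sign of binding.

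Gabpa transcripts were near the detection limit before the 2-cell stage. The 4 GV libraries had 1.18, 1.16, 2.27 and 1.05 CPM and the 4 egg libraries 0.832, 0.892, 0 and 0.951 CPM. In zygotes the libraries held 2, 8, 0 and 2 reads, or 0.0986, 0.379, 0 and 0.111 CPM. In 2-cell embryos the values were 243, 266, 342 and 245 CPM. Every 2-cell library was far above every earlier one, and the change of 7.90 (SE 0.24) on the log2 scale had an adjusted p of 4.2e-25 in limma. On this scale the pseudocount of 1 compresses a gene so low in zygotes, and with a pseudocount of 0.1 the change was 10.3. Later means were 259 ± 46.2 CPM (SD, n = 4) at the 4-cell, 234 ± 43.8 at the 8-cell, 166 ± 51.9 at the morula and 78.0 ± 29.3 at the blastocyst stage. Each of these overlapped with its neighbour in rank from the 2-cell to the blastocyst stage. The fall from morula to blastocyst, of 1.09 on the log2 scale, was called (limma, adjusted p = 0.00024), but it was not called without blastocyst library C (-0.94), morula library C (-0.95) or morula library D (-0.96), nor with a pseudocount of 0.1 (adjusted p = 0.058).

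In the gradients Gabpa showed 0 reads in all 15 heavy libraries of zygotes and 0 in those of eggs. In 2-cell embryos the heavy means of the 3 gradients were 69.6, 16.0 and 71.6 CPM and the light means 0.0546, 2.40 and 1.74 CPM. With 3 reads in the shallowest zygote heavy library and 0 in its gradient's other heavy libraries, the heavy mean would be 0.0543 CPM. The 2-cell heavy mean over the 3 gradients, 52.4 CPM, was 965-fold above this floor. That ratio is not a lower bound, because gradient B had 16.0 CPM and the floor allows for reads in that zygote library only. The heavy change from zygote to 2-cell was called at 5.47 (SE 0.75; limma, adjusted p = 2.3e-05), and heavy exceeded light in all 3 gradients at the 2-cell stage by 4.37 (SE 0.68; limma, adjusted p = 1.1e-05). The heavy rise was smaller than the transcriptome rise by 2.43 on this scale (SE 0.68; limma, adjusted p = 0.0057), with a pseudocount of 0.1 not called (-1.57, adjusted p = 0.21). The signal rested on few libraries: 20 of the 30 fraction libraries of this stage had 0 reads, and 4 of 15 heavy libraries held at least 10 CPM. Gradient A had 348 CPM in fraction 10 and at most 0.27 CPM in the other fractions. Gradient B had 80.0 CPM in fraction 9 and 12.0 in fraction 1, and gradient C had 160 CPM in fraction 8 and 198 in fraction 10. The transcriptome mean of 274 CPM stood against a mean of 26.9 CPM over the 10 fractions, a ratio lower than in all but 3.80% of 13450 genes. Loss of molecules in the fraction libraries was not tested.

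The heavy share of Gabpa, its summed CPM in fractions 6 to 10 as a percentage of all 10, was 94.8% ± 6.93 (SD, n = 3) at the 2-cell stage. In such a share every fraction counts equally, whatever amount of RNA it held. It was 91.9% ± 13.4 at the 4-cell stage, 87.5% ± 7.46 at the 8-cell stage and 83.8% ± 6.91 in morulae. Blastocyst gradients gave 72.5%, 42.4% and 49.5%, all below the gradients of the 4 earlier stages. At the 4-cell stage heavy exceeded light by 4.75 (adjusted p = 4.2e-06), at the 8-cell stage by 2.76 (adjusted p = 0.005) and in morulae by 2.31 (adjusted p = 0.031), all by limma. With heavy and light means paired within each gradient the morula call ended (adjusted p = 0.091), it ended without any 1 of the 3 morula gradients (adjusted p = 0.076 to 0.33), and it ended with a pseudocount of 0.1 (0.18). When only the stage in question entered the fit, the calls of the 2-cell (adjusted p = 0.077), 4-cell (0.23) and 8-cell stages (0.1) ended too. The 8-cell call also ended without gradient B (adjusted p = 0.11), and the 4-cell one when log values of the fractions were averaged (1.18, adjusted p = 0.078).

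**Figure D3:**
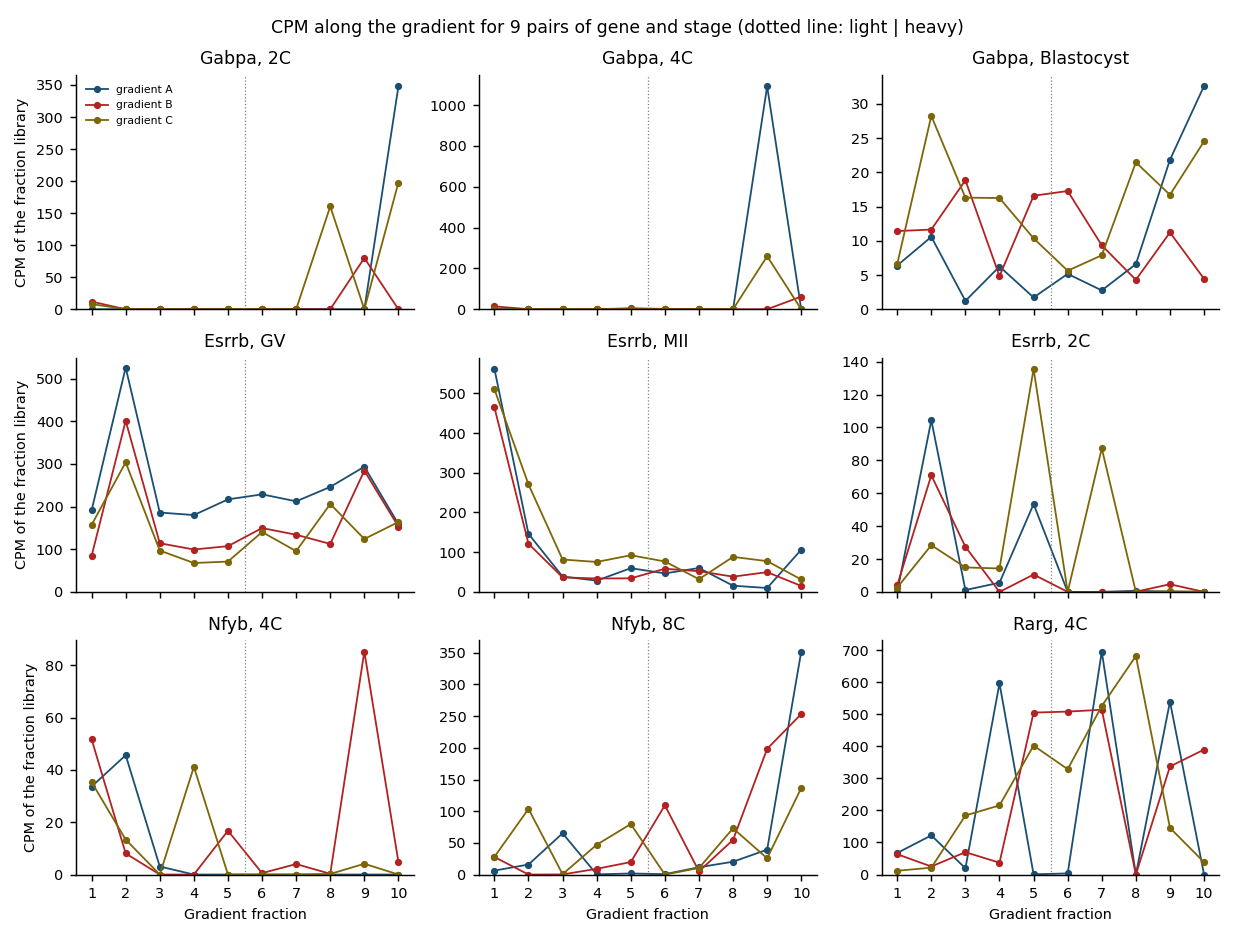
CPM of each fraction library (vertical axis) along the 10 fractions of the gradient (horizontal axis), for 9 pairs of gene and stage picked after their values were seen. Lines are the 3 gradients and the dotted line parts light from heavy fractions. Gabpa at the 2-cell stage stands in 1 or 2 heavy fractions of each gradient, while Esrrb in eggs peaks at 465 to 562 CPM in fraction 1 of all 3 gradients.

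Yy1 encodes a zinc finger protein that binds promoters and enhancers and helps to join them. Its 4 GV libraries had 1.51, 1.31, 2.73 and 3.21 CPM and its 4 zygote libraries 3.06, 2.75, 3.74 and 3.11 CPM. The 2-cell libraries had 28.4, 34.3, 50.0 and 47.2 CPM and the 4-cell libraries 135, 126, 132 and 86.4 CPM. The groups did not overlap in either step, and both rises were called, 3.27 (SE 0.20; limma, adjusted p = 4.1e-16) and 1.58 (SE 0.20; limma, adjusted p = 1.1e-08). Means were then 103 ± 18.3 CPM at the 8-cell stage, 103 ± 17.8 in morulae and 71.3 ± 14.0 in blastocysts (SD, n = 4), and each overlapped the next.

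Yy1 RNA in the heavy fractions rose at the 2-cell stage as the transcriptome did. The zygote heavy means were 0.0359, 1.91 and 0 CPM and the 2-cell ones 26.6, 10.3 and 15.9 CPM, a called rise of 3.59 (SE 0.70; limma, adjusted p = 0.00081) that was not called with fractions 7 to 10 as heavy (2.67, adjusted p = 0.069). The difference from the transcriptome rise was not called. Afterwards the heavy share was 69.9% ± 16.5 at the 2-cell and 27.8% ± 25.2 at the 4-cell stage, and 20.8% ± 6.26 in blastocysts (SD, n = 3). In blastocysts fraction 1 was the highest in all 3 gradients, at 43.0, 94.8 and 28.8 CPM. Heavy against light in blastocysts was -1.78 and was not called (limma, adjusted p = 0.25).

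Dppa2 and Dppa4 encode small nuclear proteins with SAP domains that bind each other and act on chromatin at genes of early embryos. Their transcripts differed most in the egg. Dppa4 had 29.1, 38.9, 40.0 and 35.7 CPM in GV libraries and 2.10, 1.45, 0.985 and 1.37 CPM in eggs, which was 24.3-fold lower by the means. The fall of 3.91 on the log2 scale (SE 0.20; limma, adjusted p = 8.6e-19) was followed by called rises of 1.30 to the zygote, 3.99 to the 2-cell and 3.12 to the 4-cell stage. The 2-cell libraries had 90.5, 93.6, 116 and 81.7 CPM and the 4-cell libraries 883, 681, 913 and 876 CPM, with no overlap in any of these 4 steps. From 4-cell embryo to morula the stages overlapped, at means of 838, 606 and 618 CPM, and blastocysts had 363 ± 68.1 CPM (SD, n = 4).

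Dppa2 moved less. Its GV libraries had 252, 231, 266 and 276 CPM and its egg libraries 138, 140, 110 and 137 CPM, a change of -0.96 that stayed under the size threshold. The 2-cell libraries had 201, 227, 209 and 205 CPM and the 4-cell libraries 1508, 1246, 1254 and 1236 CPM. These groups lay apart, and the rise of 2.63 was called (SE 0.15; limma, adjusted p = 4.8e-18). The fall from morula to blastocyst was called too, 1038 ± 267 to 348 ± 54.6 CPM (SD, n = 4), at -1.54 (limma, adjusted p = 9.9e-11).

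In the heavy fractions the pair also parted. Dppa4 heavy means went from 1.61, 0.608 and 0.771 CPM in zygotes to 90.8, 7.77 and 61.4 CPM in 2-cell and 636, 181 and 497 CPM in 4-cell embryos. Both rises were called, 4.24 (SE 0.78; limma, adjusted p = 0.0005) and 3.39 (SE 0.78; limma, adjusted p = 0.0015). The first was not called when log values of the fractions were averaged (adjusted p = 0.052). At the 2-cell stage Dppa4 was called as heavier, by 2.54 over the light side (limma, adjusted p = 0.012), but not without gradient A (0.79, adjusted p = 0.57), not when log values were averaged (adjusted p = 0.26), nor when only 2-cell gradients entered the fit (adjusted p = 0.33).

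Dppa2 heavy means were 159, 42.3 and 269 CPM at the 2-cell and 64.0, 189 and 392 CPM at the 4-cell stage, and these ranges overlap. The heavy change fell behind the transcriptome rise by 2.17 on the log2 scale (SE 0.61; limma, adjusted p = 0.0048). Its heavy share was 76.2%, 69.6% and 81.4% at the 2-cell and 33.2%, 40.8% and 34.6% at the 4-cell stage, without overlap. With fractions 7 to 10 as heavy the shares overlapped, at 58.9%, 12.4% and 79.4% against 32.2%, 40.5% and 27.7%. In 2-cell gradient B fraction 6 alone held 57.2% of the summed CPM. The difference from the transcriptome was not called with only these stages in the fit (adjusted p = 0.11) or with fractions 7 to 10 as heavy (-1.37, adjusted p = 0.18). Heavy over light at the 2-cell stage was 1.64, called only with gradients paired (limma, adjusted p = 0.0043 against 0.07 unpaired).

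NF-Y binds the CCAAT box as a trimer of an A, a B and a C subunit, of which B and C form a histone-like pair that A joins. The upstream window of Nfyc is shown because it carried the most CCAAT boxes among the factors, 4 in 250 bases, on the minus strand at chr4:120825210-120825459 of GRCm38.p6, with the letters CCAAT or ATTGG in capitals.
Nfyc: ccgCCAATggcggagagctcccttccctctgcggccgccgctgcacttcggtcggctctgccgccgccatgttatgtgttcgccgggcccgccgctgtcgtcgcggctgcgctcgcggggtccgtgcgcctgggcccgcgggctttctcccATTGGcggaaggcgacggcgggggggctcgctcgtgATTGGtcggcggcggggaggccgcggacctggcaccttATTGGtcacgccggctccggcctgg
The boxes begin 247, 99, 63 and 25 bases before this start. A second start of Nfyc had 2 more boxes, and single boxes stood before 1 start each of Nfya, Esrrb and Nr5a2. CCAAT on either strand was in 33.8% of all 32817 windows, so a box is common. Windows were found for 8 of the 10 factors, 15 windows in all, and 4 of the 8 held a CCAAT box. Some factors have several windows, so this count of factors does not compare with the 33.8% of windows.

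The 3 NF-Y subunits followed different courses in the transcriptomes. Nfya had 294, 289, 241 and 255 CPM in GV oocytes and 813, 642, 377 and 522 CPM in eggs, a called rise of 1.07 (SE 0.21; limma, adjusted p = 4.5e-05). That call ended without egg library A (0.90) and with quantile normalization (0.99). At the 2-cell stage it had 293, 173, 163 and 141 CPM and at the 4-cell stage 24.1, 23.9, 16.1 and 22.1 CPM, 8.92-fold lower by the means. The groups did not overlap, and the fall of 3.06 was called (SE 0.21; limma, adjusted p = 1.8e-15). Nfya then stayed between 11.9 and 27.5 CPM in the 12 libraries of 8-cell embryos, morulae and blastocysts.

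Nfyb went the other way in the same step. It had 23.3, 29.6, 31.2 and 34.2 CPM at the 2-cell and 356, 365, 253 and 278 CPM at the 4-cell stage, 10.6-fold higher by the means (3.36, SE 0.16; limma, adjusted p = 3.7e-20). The 8-cell mean of 313 ± 35.1 CPM was followed by 101 ± 21.1 in morulae (SD, n = 4), a called fall of 1.63 (limma, adjusted p = 1.9e-09). Nfyc changed least: it had 177, 206, 175 and 200 CPM in GV oocytes and 88.3, 73.0, 91.4 and 71.9 CPM in eggs, a called fall of 1.22 (limma, adjusted p = 1e-08). On recovered reads that change was -0.90 in edgeR and -0.77 in DESeq2, under the size threshold. From the egg on Nfyc means lay between 77.7 and 129 CPM, and neighbours in rank overlapped.

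Per kilobase of transcript, the scale on which genes can be compared, Nfya stood at 159 ± 49.8 CPM per kilobase in eggs against 14.1 ± 1.24 for Nfyb and 40.5 ± 5.04 for Nfyc (SD, n = 4). At the 4-cell stage Nfya was at 5.82 ± 1.01, Nfyb at 123 ± 21.9 and Nfyc at 64.3 ± 6.03 CPM per kilobase. Nfya was thus the highest of the subunits in eggs and the lowest at the 4-cell stage. The lengths used were 3706, 2554 and 2006 bases, those of the longest protein-coding transcript in GENCODE M21.

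**Figure D4:**
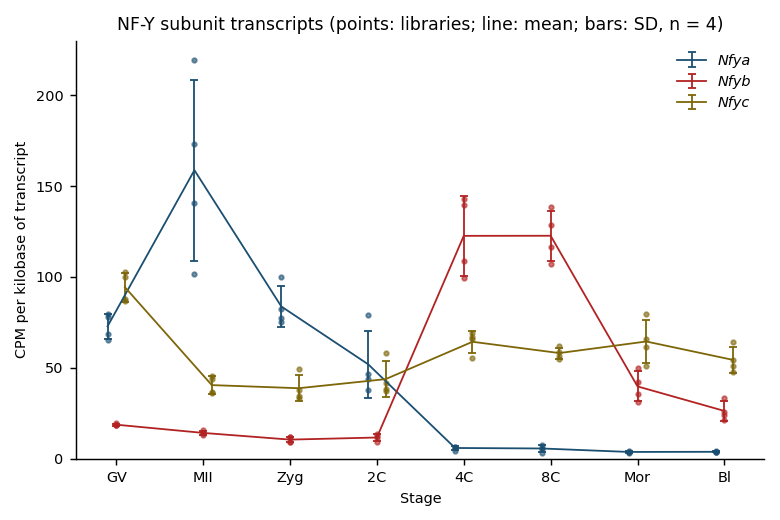
Transcript level of the 3 NF-Y subunits, as CPM per kilobase of transcript (vertical axis) at 8 stages. Points are libraries, lines their means and bars the standard deviation (n = 4). Nfya is highest in eggs at 159 and Nfyb at the 4-cell and 8-cell stages at 123.

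The gradients gave another picture for Nfyb and Nfyc at the 4-cell stage. Nfyb heavy means were 0, 19.0 and 0.869 CPM there and 84.7, 124 and 49.1 CPM at the 8-cell stage, without overlap. This heavy rise was called (4.60, SE 1.00; limma, adjusted p = 0.007), although the transcriptome mean was 313 CPM at both stages. Relative to the transcriptome, Nfyb heavy levels fell by 3.92 from the 2-cell to the 4-cell stage (SE 0.86; limma, adjusted p = 0.00041) and rose by 4.59 from the 4-cell to the 8-cell stage (SE 0.86; limma, adjusted p = 0.00016). The heavy rise was not called with only these stages in the fit (adjusted p = 0.24), nor was the first relative change (0.088). The mean over all 10 fractions at the 4-cell stage was 11.6 CPM against 313 in the transcriptome, a ratio lower than in all but 0.782% of 12658 genes, and 14 of the 30 fraction libraries had 0 reads. Of the 4-cell gradients, A had its Nfyb reads in fractions 1 to 3 only.

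Nfyc heavy means at the 4-cell stage were 0.736, 84.1 and 212 CPM, so 1 gradient stood far below the other 2. Relative to the transcriptome it fell by 2.59 into the 4-cell stage and rose by 2.92 out of it (limma, both adjusted p = 0.025). Without 4-cell gradient A the same values were -0.50 (adjusted p = 0.37) and 0.82 (0.22). Nfyc was also called lighter than heavy at the 4-cell stage (-2.47; limma, adjusted p = 0.05 after rounding), and without gradient A that was -0.62 (0.68). The last call also ended with quantile normalization (0.13), averaged log values (0.068), no filter on low values (0.055) and no variance trend (0.055). These 3 calls rest on that gradient, and each also ended in a fit of the compared stages alone (adjusted p = 0.33, 0.4 and 0.53). The first was not called without 2-cell gradient A (0.056) or with quantile normalization (0.066), and the second not without 8-cell gradient B (0.058) or C (0.069) or with fractions 7 to 10 as heavy (0.073).

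Nfya heavy means fell with its transcriptome, from 268, 125 and 369 CPM at the 2-cell to 30.0, 46.9 and 0.330 CPM at the 4-cell stage. The groups did not overlap, and the fall of 4.21 was called (SE 0.95; limma, adjusted p = 0.0013), although not with only these 2 stages in the fit (adjusted p = 0.069). Its heavy share was 48.3% ± 3.07 in GV oocytes, 50.6% ± 2.85 in eggs and 30.9% ± 8.55 in 2-cell embryos (SD, n = 3). In GV gradients A and B the shallow fraction 1 enters that share with few reads.

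Nr5a2 encodes an orphan nuclear receptor that binds AAGGTCA-like sites and is needed for early embryonic transcription. One of its upstream windows is shown because it holds the letters that another of the factors, NF-Y, binds. It lies on the minus strand at chr1:136953631-136953880 of GRCm38.p6, with ATTGG, the other strand of CCAAT, in capitals 92 bases before the start.
Nr5a2: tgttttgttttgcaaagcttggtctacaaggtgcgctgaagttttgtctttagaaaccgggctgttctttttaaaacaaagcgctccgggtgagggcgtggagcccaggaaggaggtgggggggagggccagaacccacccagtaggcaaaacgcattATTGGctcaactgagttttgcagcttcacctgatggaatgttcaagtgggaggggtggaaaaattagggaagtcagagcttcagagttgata
AAGGTCA, the site of NR5A2 and ESRRB, was in 4.08% of all windows and in those of 0 of the 8 factors, which says only that these letters are not there. The shorter nuclear receptor core site AGGTCA, which AAGGTCA contains, was in 14.0% of all windows and in those of 3 factors, Nr5a2, Nfyc and Rarg. Here too the count is of factors, some with several windows, and does not compare with a share of windows.

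Nr5a2 transcripts were present in every transcriptome library. GV oocytes had 24.1, 25.6, 26.7 and 25.3 CPM and eggs 10.6, 13.4, 8.87 and 12.4 CPM, a called fall of 1.11 (limma, adjusted p = 5.2e-06). On recovered reads it was -0.86 in edgeR and -0.73 in DESeq2, and with quantile normalization -0.48, all under the size threshold. The 2-cell libraries had 24.8, 21.4, 27.8 and 19.2 CPM and the 4-cell libraries 303, 291, 223 and 186 CPM. No 2-cell library came near a 4-cell one, the means differed 10.8-fold, and the rise of 3.36 was called (SE 0.19; limma, adjusted p = 6.6e-18). From zygote to 2-cell the means were 12.9 ± 1.17 and 23.3 ± 3.79 CPM (SD, n = 4), under the size threshold. The fall from morula (147 ± 38.3 CPM) to blastocyst (67.9 ± 16.7) was called at -1.09 (limma, adjusted p = 1.1e-05), and ended without morula library B (-0.96) or blastocyst library D (-0.94).

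The heavy fractions of Nr5a2 spread widely where its transcript rose. Heavy means were 96.3, 11.5 and 2.04 CPM at the 2-cell and 469, 101 and 103 CPM at the 4-cell stage, and the lowest 4-cell gradient was barely above the highest 2-cell one. The rise of 3.46 was called (SE 1.11; limma, adjusted p = 0.017), but not without 4-cell gradient A (2.73, adjusted p = 0.078) or 2-cell gradient C (2.29, 0.12), nor with fractions 7 to 10 as heavy (2.42, 0.1), nor with only these stages in the fit (0.11). In 4-cell gradient A, fraction 6 alone held 2027 CPM, in a shallow library of 0.996 M reads. The same fraction of gradients B and C, with 12.5 and 14.4 M reads, had 54.5 and 112 CPM. The heavy share in blastocysts was 29.8%, 13.6% and 27.2%.

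Esrrb encodes an orphan receptor of the same site class that is known for keeping stem cells pluripotent. It was the only one of the 10 whose highest transcript level was in GV oocytes by more than 1 on the log2 scale over every later stage. GV libraries had 158, 134, 161 and 127 CPM and eggs 7.40, 7.75, 6.61 and 5.28 CPM, 21.5-fold lower by the means, with a called fall of 4.24 (SE 0.23; limma, adjusted p = 7.2e-18). Zygotes had 13.0 ± 2.11 and 2-cell embryos 8.07 ± 2.94 CPM (SD, n = 4). From the 2-cell stage, at 9.05, 11.8, 5.84 and 5.60 CPM, it rose to 26.6, 34.9, 37.9 and 18.1 CPM at the 4-cell stage (1.75, SE 0.23; limma, adjusted p = 1.9e-08). The 4-cell to blastocyst stages overlapped in rank order, between means of 21.7 and 32.3 CPM.

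Fraction libraries of eggs and zygotes held much more Esrrb than the transcriptomes did. The mean over the 10 fractions was 110 CPM in eggs against 6.76 in the transcriptome, a ratio above that of 93.6% of 12164 genes. It was 116 against 13.0 CPM in zygotes and 184 against 145 CPM in GV oocytes. From GV oocyte to egg the mean over fractions thus fell far less than the transcriptome mean. The part of polyA tails in that difference was not tested. The heavy change in that step, -1.81, was not called (SE 0.91; limma, adjusted p = 0.38). In eggs fraction 1 had 562, 465 and 510 CPM in the 3 gradients, the highest of all fractions in each, and the heavy share was 22.2%, 23.6% and 22.9%. In GV oocytes fraction 2 was highest in all 3 gradients, at 526, 401 and 304 CPM, and the heavy share was 49.6% ± 2.48 (SD, n = 3). Fraction 1 of GV gradients A and B held only 0.0102 and 0.0231 M reads, where 1 read is 95.5 and 42.2 CPM. Its rank against fraction 2 there, and its part in the share, rest on few reads. Heavy against light in eggs was -1.73 and was not called (limma, adjusted p = 0.33).

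Esrrb levels were lower in 2-cell embryos than in zygotes on both sides of the gradient, and only the heavy side was tested between stages. Light means were 153, 116 and 145 CPM in zygotes and 32.9, 22.6 and 39.2 CPM in 2-cell embryos. Heavy means were 110, 92.2 and 77.7 CPM in zygotes and 0.167, 0.959 and 17.6 CPM in 2-cell embryos, without overlap (-4.74, SE 0.91; limma, adjusted p = 0.00075). The transcriptome change was under the size threshold, and the difference of the 2 changes was called at -4.08 (SE 0.82; limma, adjusted p = 0.00016), with quantile normalization -2.13 (adjusted p = 0.052). The heavy share of the 2-cell gradients was 0.504%, 4.07% and 30.9%, so gradient C kept more than the others. Within 2-cell embryos heavy was below light by 3.19 on the log2 scale (limma, adjusted p = 0.004), which ended without gradient A (-2.35, adjusted p = 0.092) and in a fit of 2-cell gradients alone (0.21). At the 4-cell stage the difference was -2.57 (limma, adjusted p = 0.023), with shares of 70.0%, 0% and 8.35% that disagree between gradients. It ended without gradient B (-1.03, adjusted p = 0.51) or C (-2.28, 0.11), without fraction 1 on the light side (-1.88, 0.23), with quantile normalization (-1.83, 0.12), with averaged log values (-1.68, 0.064) and in a fit of that stage alone (0.49).

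**Figure D5:**
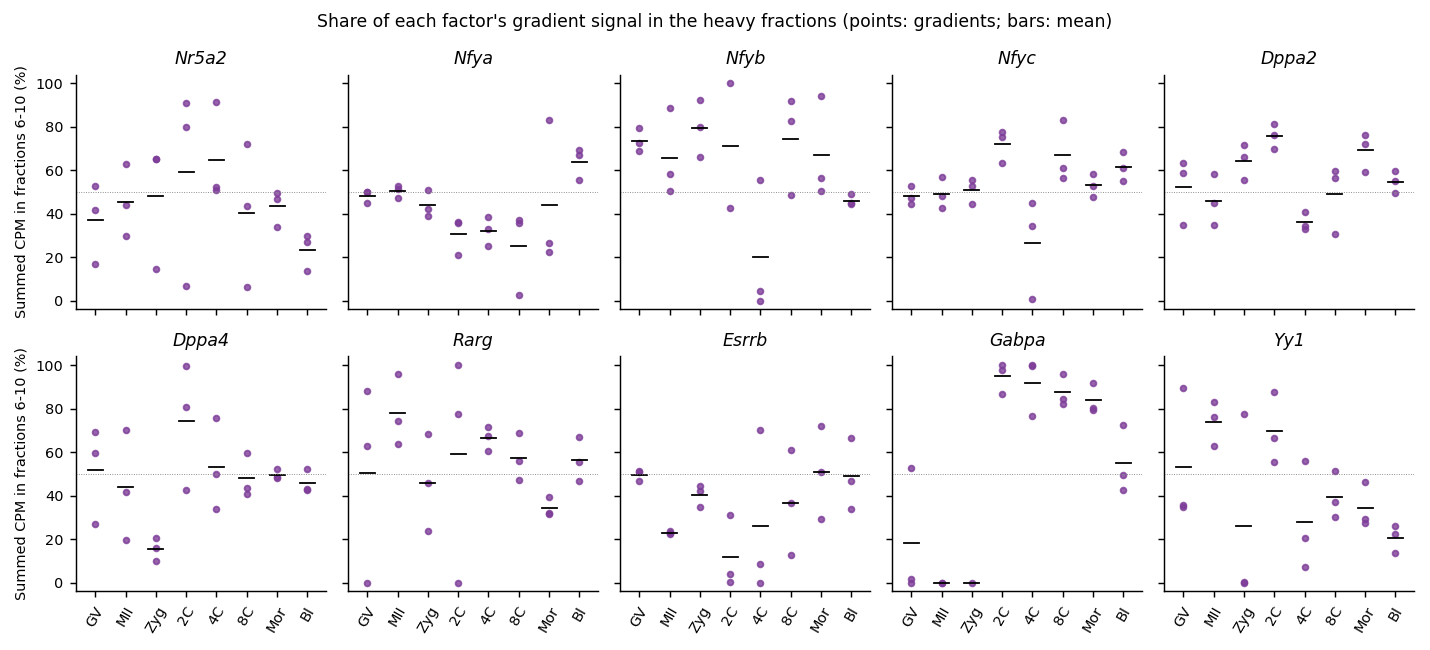
Share of each factor's summed CPM that lay in fractions 6 to 10, in percent (vertical axis), at 8 stages. Points are gradients, bars their means, and the dotted line marks 50%. Gabpa lies at 76.5% or more in every gradient from the 2-cell stage to the morula, while its points at earlier stages rest on at most 1.61 CPM in any fraction.

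Rarg encodes a receptor for retinoic acid that binds DNA with a retinoid X receptor. GV transcriptomes had 6, 0, 2 and 0 reads, eggs 2, 0, 2 and 0, and zygotes 0, 2, 1 and 1, so 11 of these 12 libraries held at most 2. In 2-cell embryos the libraries had 5.07, 3.53, 2.54 and 1.69 CPM and in 4-cell embryos 17.6, 32.2, 21.5 and 14.9 CPM. Both steps were without overlap and called, at 1.94 (SE 0.23; limma, adjusted p = 3.8e-09) and 2.43 (SE 0.23; limma, adjusted p = 5.2e-12). The first value depends on the pseudocount, and with 0.1 in place of 1 it was 4.37. The fall from morula, at 31.2, 23.9, 17.6 and 17.8 CPM, to blastocyst, at 4.11, 4.93, 3.80 and 4.70 CPM, was called at -2.10 (limma, adjusted p = 1.5e-09).

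Rarg was far higher in the fractions than in the transcriptomes at 2 stages. At the 4-cell stage the mean over 10 fractions was 235 CPM against 21.6 in the transcriptome, a ratio above that of 95.6% of 12658 genes, and at the 8-cell stage 210 against 19.9 CPM. Heavy means were 31.7, 16.0 and 0 CPM at the 2-cell and 248, 350 and 344 CPM at the 4-cell stage, without overlap, and the rise of 5.24 was called (SE 0.91; limma, adjusted p = 8.9e-05). It went beyond the transcriptome rise by 2.81 (SE 0.80; limma, adjusted p = 0.0059), though not without 2-cell gradient C (1.29, adjusted p = 0.077), with only these stages in the fit (0.18) or with a pseudocount of 0.1 (0.055). From the 8-cell stage, at 174, 182 and 390 CPM, to the morula, at 25.5, 22.9 and 29.5 CPM, heavy levels fell by 3.11 (limma, adjusted p = 0.037) while the transcriptome means were 19.9 and 22.6 CPM. The difference of -3.26 was called (limma, adjusted p = 0.0072), with a pseudocount of 0.1 at -3.30 not (0.21). The heavy fall itself was not called without any 1 of the 6 gradients (adjusted p = 0.056 to 0.13), with a pseudocount of 0.1 (0.29) or with fractions 7 to 10 as heavy (0.08).

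The heavy fractions gave a smaller share of calls than the transcriptomes in every step except 4-cell to 8-cell. On simulated data the heavy fit over all stages called unchanged genes more often than a fit of only the stages compared, both from zygote to 2-cell and from 2-cell to 4-cell, so adjusted p-values of heavy changes in these steps may be too small. Of 14524 genes, 4.06% were called between GV oocyte and egg and 1.49% between egg and zygote, with 0 factors in each. At an unadjusted p under 0.05 limma gave 1 and 0 of the 10 there. Between zygote and 2-cell 20.8% were called and 4 factors, 3 higher and 1 lower, while over all genes 741 were higher and 2282 lower. Between 2-cell and 4-cell 37.8% were called and 4 factors (3 higher, 1 lower), between 4-cell and 8-cell 6.54% and 1 factor, and between 8-cell and morula 7.98% and 1 factor. Between morula and blastocyst 0.0757% were called and 0 factors, with 0 also at an unadjusted p under 0.05.

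Heavy against light within a stage was tested in 15172 genes. In GV oocytes 0.0725% were called, in eggs 3.23% and in zygotes 3.01%, with 0 factors in each by limma and 0, 1 and 1 at an unadjusted p under 0.05. At the 2-cell stage 18.2% were called and 3 factors, Dppa4 and Gabpa heavier and Esrrb lighter. At the 4-cell stage it was 16.3% and 3 factors, Gabpa heavier and Nfyc and Esrrb lighter. At the 8-cell stage 9.05% and in morulae 5.81% were called, each with Gabpa alone among the factors. In blastocysts 2.74% were called and 0 factors by limma, with 1 at an unadjusted p under 0.05.

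The test of heavy changes beyond transcriptome changes covered 15165 genes. Its fit pools the spread of transcriptome libraries and heavy means, although heavy means vary more. For Gabpa from zygote to 2-cell the SE of the difference was 0.68, below the 0.75 of the heavy change alone. Adjusted p-values of these differences may therefore be too small. From GV oocyte to egg 8.22% were called, from egg to zygote 2.28% and from morula to blastocyst 2.20%, with 0 factors each by limma and 3, 1 and 0 at an unadjusted p under 0.05. From zygote to 2-cell 27.5% were called and 2 factors, both lower, as were 3938 of the 4177 called genes. From 2-cell to 4-cell 31.8% were called and 4 factors (1 higher, 3 lower), from 4-cell to 8-cell 13.7% and 2 factors (higher), and from 8-cell to morula 6.45% and 1 factor (lower). The members' counts lay near these shares.

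Reads of the factors were sparse in the fractions of 2-cell embryos. Of 300 pairs of factor and fraction library at each stage, 40.3% had 0 reads at the 2-cell stage, 28.7% in zygotes, 21.7% at the 4-cell stage and 1% in blastocysts. Whether these zeros reflect the RNA put into a library or position in the gradient was not tested.

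Partners and relatives of the factors moved in both directions in the transcriptomes. Of 15 listed, 11 were tested. From zygote to 2-cell 5 rose and 0 fell, where 33.9% of all genes were called. From 2-cell to 4-cell 5 rose and 2 fell, where 64.8% of all genes were called, with a median change of 0.61 against 0.02 over all genes. Dppa5a, a germ and stem cell RNA-binding protein gene, went from 121 ± 11.5 to 5067 ± 342 CPM (SD, n = 4) between the 2-cell and 4-cell stages. Esrrg, the relative of Esrrb, went from 62.9 ± 18.9 to 0.403 ± 0.378 CPM in the same step, as Esrrb itself rose. Of the retinoid X receptors, with which RARG pairs, Rxra rose from 2.68 ± 1.80 to 15.7 ± 3.83 CPM and Rxrb from 0.167 ± 0.157 to 8.27 ± 3.10 CPM in that step. Esrra rose there from 0.0368 ± 0.0736 to 4.51 ± 2.09 CPM. Zfp42, a relative of Yy1, rose from 1.17 ± 0.296 to 16.6 ± 3.56 CPM between zygote and 2-cell embryo.

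Of 14 listed genes of retinoic acid synthesis, binding and response, 8 were in the table and 7 were tested in the transcriptomes. From 2-cell to 4-cell 5 fell and 1 rose, where 64.8% of all genes were called, 4823 lower and 4662 higher. The median change of the list was -4.25, against 0.02 over all genes. Aldh1a2, which makes retinoic acid, fell from 66.2 ± 10.6 to 0.268 ± 0.536 CPM (SD, n = 4). The retinol dehydrogenases Rdh11 and Rdh10 fell from 134 ± 19.2 to 2.08 ± 1.38 and from 157 ± 12.5 to 50.8 ± 4.43 CPM. Crabp2, a retinoic acid carrier, fell from 35.0 ± 13.7 to 0.805 ± 0.778 CPM, and the reductase gene Dhrs3 from 22.7 ± 8.41 to 0.257 ± 0.514 CPM.

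Of 22 other factors tied to genome activation, 21 were tested. From zygote to 2-cell 7 rose and 0 fell, and from 2-cell to 4-cell 11 rose and 2 fell, with a median of 1.19 against 0.02 over all genes. These counts lay near the 33.9% and 64.8% of all genes called in the same steps. Klf5 rose from 0.158 ± 0.220 to 23.0 ± 3.98 CPM (SD, n = 4) and Sp1 from 11.9 ± 2.18 to 46.0 ± 6.01 CPM between zygote and 2-cell. Tead4 rose from 2.10 ± 0.464 to 77.4 ± 13.8, the remodeler gene Smarca4 from 15.8 ± 2.97 to 402 ± 52.1, the demethylase gene Kdm5b from 60.5 ± 10.1 to 525 ± 37.9 and Tfap2c from 17.2 ± 6.07 to 86.1 ± 12.0 CPM between 2-cell and 4-cell. Of 12 nuclear receptor coregulators 10 were tested, with 0 higher and 1 lower from zygote to 2-cell and 1 higher and 3 lower from 2-cell to 4-cell, against the same 33.9% and 64.8% of all genes. The coactivator genes Ncoa2, Ncoa6 and Ncoa1 fell in that last step, from 67.0 ± 9.02 to 1.96 ± 1.05, from 118 ± 7.01 to 24.2 ± 2.67 and from 15.7 ± 1.28 to 4.03 ± 1.20 CPM. Carm1 rose there from 1.98 ± 0.939 to 6.85 ± 2.89 CPM, and Ppargc1b fell from 7.65 ± 1.05 to 0.876 ± 0.435 CPM between zygote and 2-cell. From morula to blastocyst 6 coregulators rose and 0 fell, where 26.8% of all genes were called, 2750 higher and 1167 lower. All calls on these lists are by limma over all genes.

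Each factor had genes with nearly the same course over the 32 transcriptome libraries, by Pearson's r of log2(CPM + 1) among 9884 genes with a mean of at least 5 CPM. The libraries of a stage share that stage's level, so r mainly describes the 8 stage means. For Dppa4 the nearest were Arfrp1 (0.991) and Rplp0 (0.991), for Nfya Stbd1 (0.989) and Oas1d (0.987), and for Gabpa Terb2 (0.986) and Ddit4l (0.986). For Yy1 they were Gm12617 (0.986) and Mak16 (0.985), for Rarg Ovol2 (0.985) and Ankrd10 (0.982), and for Dppa2 Tma16 (0.985) and Bnip3l (0.983). For Nr5a2 they were Lsg1 (0.981) and Ocm (0.977), and for Nfyb Ebna1bp2 (0.965) and Rbm41 (0.950). The lowest values were those of Esrrb with Elp2 (0.922) and Sdhd (0.920) and of Nfyc with Slc52a2 (0.879) and Noc4l (0.878).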

How the data were processed

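The authors deposited 1 table of CPM for 272 libraries. Per the submitters' processing notes, the tools were Trim Galore 0.6.7, FastQC, HISAT2 2.2.1, featureCounts 2.0.1 and edgeR, and the build GRCm39. Every value was a whole multiple of 1 read (tolerance 0.05 reads) in all 272 libraries. In 9 libraries (4 blastocyst transcriptomes and 5 fractions) the authors' deposited CPM are treated as signal, because repeated rows brought the column sum above that of CPM. Of 15854 rows, 159 shared their values with another, and 15771 were kept. The 2-cell transcriptome columns carried letters other than the labels', so they were assigned to their stage only.

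The members and lists were chosen with earlier results of these data known. Named genes are all 10 factors, for each the 2 most alike genes, and up to 6 called genes a list with the largest changes from zygote to 4-cell. Genes reaching 1 CPM in at least the smallest group's number of samples were tested with limma 3.58.1 (R 4.3.3, trend) on log2(CPM + 1), or log2 of the mean CPM over fractions plus 1. Alternatives used edgeR 4.0.16 and DESeq2 1.42.0 on recovered reads, and the settings named under the limits. The fits were tested on simulated data, where the heavy fit over all stages called too many unchanged genes in the steps from zygote to 2-cell and from 2-cell to 4-cell, and the fit of only those stages recovered fewer changed ones. Replicate letters did not pair libraries (correlations of same-letter deviations -0.23 to 0.26 in transcriptomes, 84 pairs). Heavy and light means do share their gradient. All 288 replicate pairs differed beyond counting noise (chi-square per degree of freedom at least 2.55). Upstream windows came from RefSeq, GRCm38.p6.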

Additional observations from a re-analysis of the deposited data

Results flagged for a closer look

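In 7 of 80 groups of 4 transcriptome libraries, the lowest or highest value stood apart from the other 3 by Dixon's test, where about 1 in 20 groups would by chance. These were Nr5a2 at the 8-cell stage (206 CPM, high), Dppa2 in eggs (110 CPM, low) and at the 4-cell stage (1508 CPM, high), Dppa4 at the 4-cell stage (681 CPM, low), Gabpa in GV oocytes (2.27 CPM, high) and in eggs (0 CPM, low), and Yy1 at the 8-cell stage (131 CPM, high).

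The heavy change was called as different from the transcriptome change in 9 of 70 tests of the difference between the 2 changes (limma, adjusted over all genes). The fit pools the spread of both kinds of library, so these calls may be too many. From zygote to 2-cell embryo the differences were -4.08 for Esrrb and -2.43 for Gabpa. From 2-cell to 4-cell they were -3.92 for Nfyb, -2.59 for Nfyc, -2.17 for Dppa2 and 2.81 for Rarg. From 4-cell to 8-cell they were 4.59 for Nfyb and 2.92 for Nfyc, and from 8-cell to morula -3.26 for Rarg.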

How the results depend on the processing

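Of the 23 transcriptome calls on the 10 factors, 20 were kept through every left-out library and 19 through every other alternative tried. For heavy fractions it was 8 and 4 of 10, for heavy against light 2 and 0 of 8, and for heavy beyond transcriptome changes 6 and 1 of 9, and none reversed. The fits pool the spread of all stages, while 2-cell and 4-cell gradients vary most, so those calls are the least certain. The fit of heavy beyond transcriptome changes also pools the spread of both kinds of library, of which heavy means vary more. Quantile normalization moved the median change of all genes most from zygote to 2-cell, by -0.45 in transcriptomes, 0.50 in heavy fractions and 0.93 in their difference. Depth limits the 15 fraction libraries under 1 M reads.

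Counts of factors called moved as follows. In the transcriptomes, egg to zygote gave 2 with a pseudocount of 0.1, with edgeR and with DESeq2. In the heavy fractions, a fit of only the stages compared gave 4 from GV oocyte to egg, 2 between the 2-cell and 4-cell stages, 0 between the 4-cell and 8-cell stages and 2 from 8-cell to morula. There, averaging log values over fractions gave 2 from GV oocyte to egg, 3 from 4-cell to 8-cell and 2 from 8-cell to morula, and the last step gave 0 with a pseudocount of 0.1 or fractions 7 to 10. For heavy against light, a fit of only the stage gave 1 in eggs, 1 in zygotes, 0 at the 2-cell, 0 at the 4-cell and 0 at the 8-cell stage, 2 in morulae and 2 in blastocysts. Averaging log values gave 1 at the 4-cell and 2 at the 8-cell stage, quantile normalization 1 at the 4-cell stage, and a pseudocount of 0.1 gave 0 in morulae. For heavy beyond transcriptome changes, only the stages compared gave 2 from GV oocyte to egg, 1 from egg to zygote, 0 from 2-cell to 4-cell, 1 between the 4-cell and 8-cell stages and 2 from 8-cell to morula. Averaged log values gave 2, 4, 4 and 2 from GV oocyte to egg, zygote to 2-cell, 4-cell to 8-cell and 8-cell to morula. Quantile normalization gave 1 from GV oocyte to egg and 1 from zygote to 2-cell, a pseudocount of 0.1 gave 1 from zygote to 2-cell and 0 from 8-cell to morula, and fractions 7 to 10 gave 1 from 4-cell to 8-cell. Apart from fits with fewer samples, the cause was not tested.

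With a replicate block, heavy against light called 4 factors at the 2-cell stage and 0 in morulae, and heavy beyond transcriptome called 1 from GV oocyte to egg and 3 from 4-cell to 8-cell. In contrasts between stages the letters did not pair samples, and the block could not be fitted for transcriptome contrasts with the 2-cell stage.

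Leaving out 1 library or gradient in turn, counts ranged over the 7 transcriptome steps in order from 4 to 6, 1 to 2, 4 to 4, 8 to 8, 0 to 0, 1 to 1 and 3 to 4. In the heavy fractions they ranged from 0 to 0, 0 to 0, 4 to 5, 3 to 5, 1 to 3, 0 to 0 and 0 to 0. For heavy against light over the 8 stages they ranged from 0 to 0 in GV oocytes, eggs and zygotes, 1 to 4, 2 to 3 and 0 to 1 at the 2-cell, 4-cell and 8-cell stages, and 0 to 0 in morulae and blastocysts. For heavy beyond transcriptome they ranged from 0 to 1, 0 to 0, 2 to 3, 3 to 5, 1 to 3, 1 to 1 and 0 to 0.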
